A study of Mus musculus with 7 samples.

Results

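Excitation-contraction coupling turns depolarization of a muscle fiber into the release of stored calcium. The 10 genes described here were taken by their exact symbols from a list of coupling and calcium store genes: Ryr1, Cacna1s, Cacnb1, Cacng1, Atp2a1, Atp2a2, Casq1, Casq2, Jph1 and Sln. All 10 were found among the 26607 listed genes, and the list was given by gene name, with earlier results of these data known. They were measured by RNA-seq in myotubes of C2C12, an established mouse myoblast line that fuses into multinucleated myotubes when serum is lowered. The control group held 3 libraries without treatment (replicates 1, 3 and 4) and the electrical pulse stimulation (EPS) group held 4 libraries (replicates 1 to 4). Per the methods of the study, both groups were differentiated for 3 days, and pulses of 1 Hz were given to the EPS group over 24 h, with RNA taken after a rest of 1 h. Both groups derive from a single cell line grown without nerve or load, and the labels do not say whether the libraries came from separate cultures, so that p-values measure only the spread between these libraries.

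In skeletal muscle, the voltage sensor is a calcium channel complex in the transverse tubule. Cacna1s encodes its pore-forming subunit, Cacnb1 its intracellular beta subunit and Cacng1 its gamma subunit. The sensor opens Ryr1, the release channel of the sarcoplasmic reticulum, across a junction that Jph1 (junctophilin 1) holds together. Calcium is pumped back by SERCA ATPases, of which Atp2a1 encodes the fast-fiber form and Atp2a2 the form of slow muscle, heart and, as a splice variant, most other cells. Inside the store it is bound by calsequestrin, with Casq1 as the main skeletal form and Casq2 as the cardiac and slow-muscle form. Sln encodes sarcolipin, a small membrane peptide that inhibits the pump.

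The start regions of 4 of these genes are shown because they hold the pump and the calsequestrin that were lower in all EPS libraries (Atp2a1, Casq1), the calsequestrin that was not (Casq2), and the voltage sensor (Cacna1s). Each window runs from 250 bases before to 50 bases after the start of transcription and is written 5′ to 3′ on the strand of the gene, from RefSeq on GRCm38.p6. The capitals mark every CANNTG, the E-box core recognized by basic helix-loop-helix factors such as MyoD and myogenin.
Atp2a1, chr7:126463024-126463323, minus strand: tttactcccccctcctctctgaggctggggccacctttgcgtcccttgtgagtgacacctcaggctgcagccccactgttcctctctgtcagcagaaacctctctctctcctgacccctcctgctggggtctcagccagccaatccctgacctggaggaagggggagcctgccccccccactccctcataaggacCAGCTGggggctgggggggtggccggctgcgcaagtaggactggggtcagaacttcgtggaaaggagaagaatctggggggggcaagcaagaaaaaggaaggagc
Casq1, chr1:172219846-172220145, minus strand: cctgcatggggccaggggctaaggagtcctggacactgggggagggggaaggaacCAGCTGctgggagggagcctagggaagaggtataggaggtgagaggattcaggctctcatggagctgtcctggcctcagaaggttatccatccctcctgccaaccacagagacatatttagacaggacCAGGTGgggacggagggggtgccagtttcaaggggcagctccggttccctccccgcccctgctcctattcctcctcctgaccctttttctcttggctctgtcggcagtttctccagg
Casq2, chr3:102086165-102086464, plus strand: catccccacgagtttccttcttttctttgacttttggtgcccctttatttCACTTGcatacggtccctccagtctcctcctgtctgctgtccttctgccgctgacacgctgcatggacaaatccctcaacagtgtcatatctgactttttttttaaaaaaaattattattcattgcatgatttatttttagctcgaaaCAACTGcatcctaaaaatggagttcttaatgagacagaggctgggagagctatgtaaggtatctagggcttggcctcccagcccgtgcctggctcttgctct
Cacna1s, chr1:136052561-136052860, plus strand: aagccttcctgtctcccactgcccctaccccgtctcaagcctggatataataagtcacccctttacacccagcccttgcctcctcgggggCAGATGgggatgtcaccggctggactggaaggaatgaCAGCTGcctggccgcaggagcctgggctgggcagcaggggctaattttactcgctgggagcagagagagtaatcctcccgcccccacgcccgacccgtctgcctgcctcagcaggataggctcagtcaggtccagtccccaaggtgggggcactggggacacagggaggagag

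Windows were given for 6 of the 10 genes, with 7 windows in all because Cacnb1 has a pair of them. Both strands were searched for CANNTG, for its form CAGCTG, which is contained in the former, and for the A/T-rich MEF2 motif. CAGCTG lay 55 bases before the start in Atp2a1, 195 bases before it in Casq1 and 123 bases before it in Cacna1s. The Casq2 window held no CAGCTG but had CACTTG at 200 bases and CAACTG at 52 bases before the start, and a MEF2 motif at 69 bases before it. The Ryr1 window held no match to any of the 3 motifs, and only the window of the downstream start of Cacnb1 held a CANNTG. Of the 32851 mouse windows of this length, 72.3% held CANNTG, 16.3% held CAGCTG and 1.86% held the MEF2 motif. A match describes the letters of the window and does not show that a factor binds there.

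The libraries held 16616917 to 22120641 reads on listed genes, so that 3 reads, taken as the detection floor, correspond to 0.136 to 0.181 CPM, the unit of the deposited values (reads of a gene scaled to the library total). Control replicate 4 stood apart, with only 359 genes at 1 to 5 reads, where each other library had 2670 to 3181, and values without it are given beside several of the results. Of the 12 myotube markers, 11 had a lower mean in the EPS group, and their summed level was 19403 to 22967 CPM in control libraries and 12868 to 20408 CPM in EPS libraries. With all libraries, the markers with the largest differences were Myog, the factor myogenin, and Gm7325, the listed symbol of the fusion factor Mymx. Myog was at 473, 565 and 1794 CPM in control (the last in replicate 4) and 281, 605, 406 and 278 CPM in EPS. Gm7325 was at 42.9, 67.3 and 76.6 CPM in control and 21.2, 64.3, 28.4 and 20.02 CPM in EPS. The smallest log2 fold changes were -0.11 for Acta1, -0.14 for Tnnt3, -0.18 for Neb and 0.12 for Tmem8c. Tmem8c, the listed symbol of Mymk, was the marker with a higher mean in EPS. Actn2, a sarcomeric actinin singled out after its values had been seen, was the myotube marker whose groups did not overlap, at 48.8 to 99.4 CPM in control and 30.4 to 48.1 CPM in EPS (log2 fold change -0.99). Of the 9 myoblast and cycling markers, 6 were higher. The sum of the 9 was 333 to 384 CPM in control and 427 to 1111 CPM in EPS libraries. The myoblast markers Pax7 and Myf5 differed little, at log2 fold changes of -0.12 and 0.20 with overlapping groups. Pax7 was at 16.3 to 28.1 CPM in control and 15.3 to 22.2 CPM in EPS. Myf5 was at 4.78 to 8.36 CPM in control and 4.38 to 11.7 CPM in EPS. Mki67, a proliferation marker, had 90.0 to 131 CPM in control and 124 to 452 CPM in EPS, and Ccnb1, a mitotic cyclin, 11.4 to 37.9 CPM and 33.3 to 100.1 CPM. Of the 3 lower markers of this list, Id1, an inhibitor of differentiation, had a log2 fold change of -1.09. It was at 17.9, 17.6 and 45.7 CPM in control (the last in replicate 4) and 7.49 to 14.03 CPM in EPS, without overlap. The related Id3, also highest in control replicate 4, had a log2 fold change of -0.96. Its levels were 12.8 to 24.4 CPM in control and 4.84 to 17.002 CPM in EPS. Fibroblast and endothelial markers summed to 85.8 to 153 CPM in control and 56.4 to 149 CPM in EPS, with Thy1, Kdr and Ptprc at no more than 3 reads in any library. In that list Dcn, a matrix proteoglycan, had 67.8 to 123 CPM in control and 26.6 to 113 CPM in EPS, and Lum, a related one, 3.09 to 5.90 CPM and 1.17 to 4.04 CPM. The third marker of that list above 1 CPM, Pdgfra, a receptor of mesenchymal cells, went the other way (log2 fold change 0.70). It was at 20.3, 24.01 and 12.3 CPM in control (the last in replicate 4) and 27.1 to 34.0 CPM in EPS, without overlap. Over all tested genes, the groups were apart with EPS lower, as for Actn2 and Id1, in 2.85%. They were apart with EPS higher, as for Pdgfra, in 7.76%. Id1, Id3, Pdgfra, Pax7, Myf5, Acta1, Tnnt3, Neb and Tmem8c were singled out after their values had been seen. Fold changes without control replicate 4 are not given for the markers of this paragraph.

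EPS was compared with control to ask whether 24 h of paced contraction moved the transcripts of the coupling machinery and of the store. The fast-fiber pump Atp2a1 and the skeletal calsequestrin Casq1 had lower levels in every EPS library than in every control library, at 0.602 and 0.623 of the control level. Their counterparts Atp2a2 and Casq2 differed by less than the spread between replicates. The voltage sensor genes Cacna1s and Cacnb1, the release channel Ryr1, the gamma subunit Cacng1 and the junction protein Jph1 overlapped between the groups, and Sln was near 0 throughout. No gene of the 10 passed the thresholds for differentially expressed genes, an unadjusted limma P under 0.01 with more than a 2-fold change, which 1.41% of the 19144 tested genes passed. None of the 10 had a Benjamini-Hochberg adjusted p under 0.05 in limma, against 0.141% of tested genes. With DESeq2 the adjusted p was 0.0281 for Atp2a1 and 0.0206 for Casq1, in a fit that gave 3.39% of its genes an adjusted p under 0.05. At an unadjusted limma P under 0.05, 2 of the 10 were lower in EPS, Atp2a1 and Casq1, against 3.21% of tested genes, and these were also the 2 whose groups did not overlap with EPS lower, against 2.85% of tested genes. In this bulk RNA, fewer myotubes and less of a transcript per myotube cannot be told apart.

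**Figure D1:**
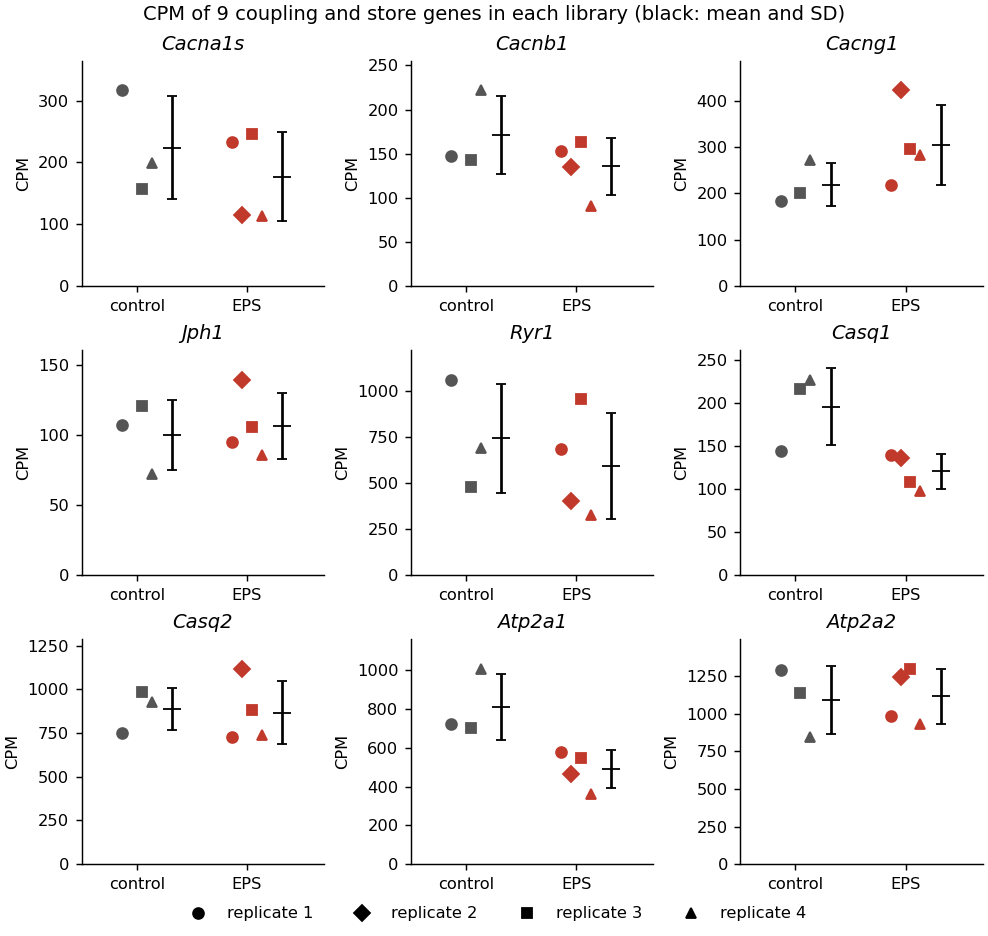
CPM of 9 of the 10 genes in each library, with 1 panel per gene, points for the 3 control and 4 EPS libraries and bars for the mean ± SD. In the panels of Atp2a1 and Casq1 all EPS points lie below all control points, and in the other panels the points of the groups overlap.

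Atp2a1 (chr7:126445858-126463108, minus strand, GRCm38) encodes the pump that returns calcium to the store in fast fibers. It was measured at 724, 701 and 1008 CPM in control replicates 1, 3 and 4 and at 579, 464, 548 and 363 CPM in EPS replicates 1 to 4. The highest EPS library lay below the lowest control library, and EPS replicate 4 was the lowest of all. The means were 811 ± 171 CPM (SD, n = 3) and 489 ± 97.0 CPM (SD, n = 4), with a two-sided exact permutation p of 0.0286, the smallest that 7 libraries allow. The log2 fold change was -0.73 (SE 0.25, 95% confidence interval -1.29 to -0.18) with a limma P of 0.0157 and an adjusted p of 0.283 over all tested genes. Without control replicate 4, which had the highest level, the log2 fold change was -0.57 with a limma P of 0.0477. Atp2a1 shares 763 exonic bases, 21.9% of its exonic length, with Rabep2 on the opposite strand, and the strand setting used in counting is not given in the sources used here. Rabep2 was at 17.7 to 18.2 CPM in control and 14.5 to 20.2 CPM in EPS, far below Atp2a1.

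Casq1 (chr1:172209894-172219868, minus strand), which binds calcium in the store beside the release channel, was at 144, 217 and 228 CPM in control and at 139, 137, 109 and 98.4 CPM in EPS. The groups did not overlap, but the lowest control library (replicate 1) and the highest EPS library (replicate 1) were close to each other. The means were 196 ± 45.4 CPM (SD, n = 3) and 121 ± 20.3 CPM (SD, n = 4), with a two-sided exact permutation p of 0.0286. The log2 fold change was -0.68 (SE 0.21, 95% confidence interval -1.16 to -0.21) with a limma P of 0.01004, just outside the threshold of 0.01, and an adjusted p of 0.238. Without control replicate 4 the log2 fold change was -0.56 with a limma P of 0.0352. The gene shares 156 exonic bases (7.996%) with the antisense gene Gm17224.

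Atp2a2 (chr5:122453513-122502225, minus strand) was at 1293, 1141 and 844 CPM in control and at 989, 1247, 1301 and 930 CPM in EPS. Control replicate 4, which had the most Atp2a1, had the least Atp2a2. The means were 1093 ± 228 CPM (SD, n = 3) and 1117 ± 185 CPM (SD, n = 4), with an exact permutation p of 0.943, and the limma log2 fold change of 0.039 had a 95% confidence interval of -0.60 to 0.67. Casq2 (chr3:102086415-102146514, plus strand) was at 752, 983 and 926 CPM in control and at 727, 1119, 884 and 740 CPM in EPS. The lowest and the highest Casq2 level were both in EPS libraries. Its means were 887 ± 120 CPM (SD, n = 3) and 868 ± 182 CPM (SD, n = 4), with an exact permutation p of 0.800, and its log2 fold change of -0.045 had an interval of -0.62 to 0.53. Without control replicate 4 the log2 fold changes were -0.14 for Atp2a2 and -0.0097 for Casq2. Both intervals include 0, and changes in either direction within them are not excluded by these libraries.

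Shares of each pair were formed within a library, which no scaling of a whole library by 1 factor can move. The Atp2a1 share of Atp2a1 plus Atp2a2 reads was 35.9, 38.1 and 54.4% in control and 37.0, 27.1, 29.6 and 28.1% in EPS. The means were 42.8 ± 10.1% (SD, n = 3) and 30.4 ± 4.47% (SD, n = 4), a difference of -12.3 percentage points with a two-sided exact permutation p of 0.0857, which did not pass 0.05. Control replicate 1 lay below EPS replicate 1, and without control replicate 4 the difference was -6.54 percentage points (exact permutation p = 0.200). The Casq1 share of Casq1 plus Casq2 reads was 16.1, 18.1 and 19.7% in control and 16.1, 10.9, 11.0 and 11.7% in EPS. The means were 17.97 ± 1.83% (SD, n = 3) and 12.4 ± 2.48% (SD, n = 4), a difference of -5.55 percentage points with an exact permutation p of 0.0571. The shares of control replicate 1 and EPS replicate 1 had 95% Wilson intervals of 15.5 to 16.7% and 15.6 to 16.6%, which cover counting error only, and could not be told apart, whereas the other EPS libraries lay below every control library. Without control replicate 4 this difference was -4.67 percentage points. Divided by exonic length, the mean Atp2a1 share was 56.3% in control and 43.3% in EPS, and the mean Casq1 share was 23.5% and 16.6%.

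**Figure D2:**
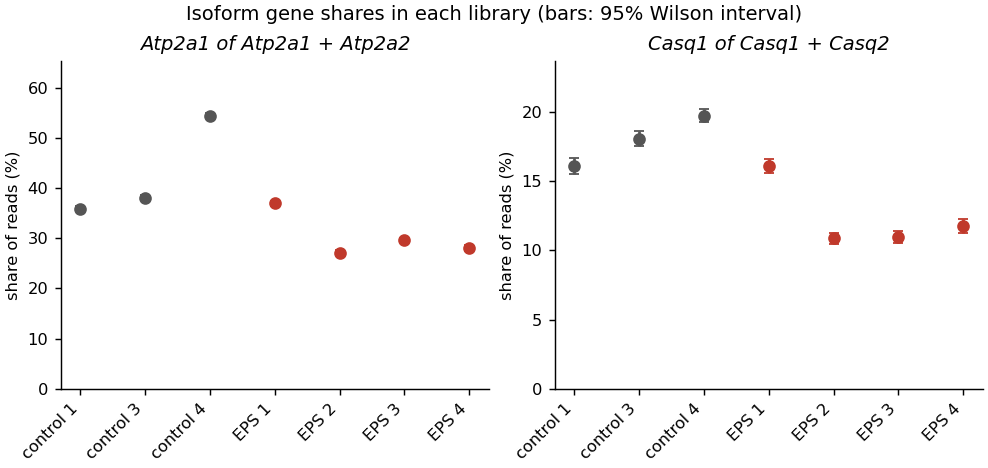
Share in percent of Atp2a1 in the reads of Atp2a1 plus Atp2a2, and of Casq1 in those of Casq1 plus Casq2. Points show each of the 3 control and 4 EPS libraries, and bars show the 95% Wilson interval of each library. The bars cover counting error only and not the spread between libraries. All 4 EPS libraries lie below the control mean of 42.8% for the Atp2a1 share and 17.97% for the Casq1 share. EPS replicate 1 lies at the level of control replicate 1.

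Ryr1 (chr7:29003344-29125179, minus strand) was at 1063, 476 and 692 CPM in control and at 683, 400, 957 and 327 CPM in EPS. Control replicate 1 and EPS replicate 3 were high and EPS replicates 2 and 4 were low, so that the highest library had 3.25 times the lowest. Cacna1s (chr1:136052750-136119822, plus strand) was at 316, 156 and 199 CPM in control and at 232, 115, 246 and 114 CPM in EPS. Its high and low libraries were the same as those of Ryr1, with 2.78 times between the highest and the lowest. The means of Ryr1 were 744 ± 297 CPM (SD, n = 3) and 592 ± 288 CPM (SD, n = 4), with an exact permutation p of 0.486, and those of Cacna1s were 224 ± 83.0 CPM (SD, n = 3) and 177 ± 72.3 CPM (SD, n = 4), also with an exact permutation p of 0.486. The limma log2 fold changes were -0.38 (SE 0.42, interval -1.33 to 0.57) for Ryr1 and -0.37 (SE 0.35, interval -1.18 to 0.43) for Cacna1s. They were -0.086 and -0.092 without control replicate 1, the highest library of both genes, and -0.66 and -0.60 without control replicate 3. Within groups, the SD on the log2 scale was 0.66 for Ryr1 and 0.58 for Cacna1s, and 0.26 to 0.37 for the other detected genes. Cacna1s shares 1309 exonic bases (19.98%) with the antisense gene Gm37759, and Ryr1 shares 864 (3.96%) with Gm26604.

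On average, the release channel and its sensor stood in nearly the same proportion in both groups, with some spread between libraries. Ryr1 reads per Cacna1s read ranged from 2.88 to 3.89, with means of 3.30 ± 0.220 (SD, n = 3) in control and 3.30 ± 0.479 (SD, n = 4) in EPS. The difference in the mean log2 ratio was -0.0079, with a two-sided exact permutation p of 1.00. Divided by exonic length the mean ratio was 0.99 in both groups, and divided by the longest annotated transcript it was 1.34 in both. The exonic length of Ryr1, 21838 bases over all transcripts, exceeds its longest transcript of 15358 bases, so that the ratio of molecules depends on the length taken.

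The 3 genes whose pattern over the 7 libraries was most like that of Ryr1 were Kif26b, a kinesin family gene, Myh3, the embryonic myosin heavy chain, and Hspg2, which encodes perlecan. Likeness was the root mean square difference of log2(CPM + 1) after centring each gene, over 12247 genes with a mean of at least 1 CPM other than the genes described here, and was 0.082, 0.11 and 0.13 for these genes. Cacna1s, at 0.15, would take rank 6 among them. Kif26b was at 112, 56.7 and 80.2 CPM in control and 71.5, 48.3, 104 and 37.1 CPM in EPS. Ryr1, Kif26b and Hspg2 have exonic lengths of 21838, 14696 and 14307 bases with 58.0, 53.1 and 60.9% GC, and Myh3 has 6057 bases with 53.8% GC. A class of 234 genes over 8 kb and over 54% GC, chosen after looking at the data and holding neither Kif26b nor Myh3, had median deviations from each gene's mean of 0.28, -0.16 and -0.12 (log2) in the control libraries and 0.12, -0.25, 0.27 and -0.14 in the EPS libraries. The deviations of Ryr1 were 0.81, -0.35 and 0.19 in control and 0.17, -0.60, 0.66 and -0.89 in EPS. They had the same sign as the class in 6 of 7 libraries, the exception being control replicate 4. Hspg2 meets the cuts of this class and is in it. Ryr1 meets them too, but the genes described here were left out of the class. The medians of 1235 genes over 8 kb and under 48% GC were 0.061, 0.049 and -0.30 in control libraries. In EPS libraries they were 0.10, 0.032, 0.089 and -0.013. These were opposite in sign to Ryr1 in control replicates 3 and 4 and EPS replicate 2. Whether length and GC content caused the Ryr1 pattern was not tested. With a correction for exonic length and GC content, added after seeing the data, the log2 fold change of Ryr1 was -0.34. Its limma P was 0.146, against 0.386 in the main fit. The corrected fit also held fewer genes, 12028 against 19144. Keeping only genes with a mean of at least 1 CPM, without the correction, gave a limma P of 0.327.

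**Figure D3:**
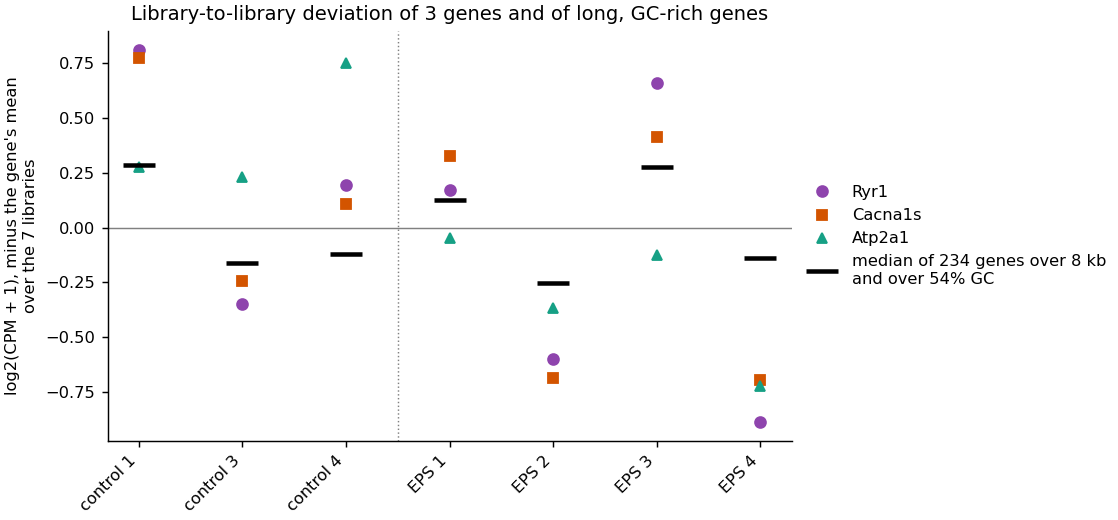
Deviation from the gene's mean over the 7 libraries, in log2(CPM + 1), of Ryr1, Cacna1s and Atp2a1 and the median deviation of 234 long GC-rich genes, for each library. Ryr1 and Cacna1s are highest in control replicate 1 and EPS replicate 3, whereas Atp2a1 is above its mean in the 3 control libraries and highest in control replicate 4.

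For Atp2a1 the nearest genes were Pcdhgc5, a protocadherin, at a distance of 0.137, Ccnd3, which encodes cyclin D3, at 0.138, and Stac3, an adaptor that the voltage sensor needs, at 0.146. Ccnd3 was at 373, 421 and 560 CPM in control and 335, 291, 257 and 220 CPM in EPS. Pcdhgc5 was low, at 2.92, 2.95 and 4.02 CPM in control and 1.91, 1.22, 2.51 and 1.12 CPM in EPS. Among the 10 genes, Cacnb1 would take rank 55 and Casq1 rank 104 by likeness to Atp2a1. The points of these comparisons share the 7 libraries and their depths.

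Cacnb1 (chr11:98001508-98023034, minus strand) was at 148, 143 and 222 CPM in control and at 153, 134, 164 and 90.9 CPM in EPS. Control replicate 4 was the highest and EPS replicate 4 the lowest library, and the other libraries overlapped. The log2 fold change was -0.34 (SE 0.24, interval -0.89 to 0.21) with a limma P of 0.199. It was -0.14 without control replicate 4 and -0.16 without EPS replicate 4. Cacng1 (chr11:107703218-107716522, minus strand) was at 185, 200 and 273 CPM in control and at 217, 423, 296 and 282 CPM in EPS. EPS replicates 2, 3 and 4 lay above all control libraries and EPS replicate 1 did not. Its log2 fold change was 0.45 (SE 0.25, interval -0.10 to 1.01) with a limma P of 0.0989, an adjusted p of 0.520 and an exact permutation p of 0.143. Without EPS replicate 1, or without control replicate 4, the groups of Cacng1 did not overlap, with log2 fold changes of 0.60 and 0.62, where 9.78% and 13.1% of all tested genes were apart with EPS higher. Without EPS replicate 2, its highest library, the log2 fold change was 0.28. With all libraries it was 0.42 after quantile normalization, 0.35 with TMM scaling and 0.34 with median-of-ratios scaling. With the length and GC correction it was 0.30. Jph1 (chr1:16964560-17097889, minus strand) was at 107, 121 and 72.5 CPM in control and at 95.2, 140, 106 and 86.1 CPM in EPS, with a log2 fold change of 0.098 (SE 0.23, interval -0.41 to 0.61) that was -0.12 without control replicate 4.

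Sln (chr9:53850164-53854560, plus strand) had 0 reads in 6 libraries and 1 read, 0.0531 CPM, in EPS replicate 4. This is under the floor of 3 reads in all libraries, and no fold change is given. Pln, which encodes phospholamban, another small inhibitor of the pump, was also near the floor, at 0 to 0.0583 CPM in control and 0 to 0.195 CPM in EPS. Mrln, which encodes the inhibitory peptide myoregulin, was at 2.22, 2.29 and 5.52 CPM in control and 1.21, 5.85, 2.06 and 1.38 CPM in EPS. Pln and Mrln were singled out after their values had been seen.

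Of the 9 genes with a mean of at least 1 CPM, 6 had a lower and 3 a higher mean log2 level in EPS, with a median log2 fold change of -0.34. Over all 12256 genes at this level 36.4% were lower and the median was 0.10. Scaling by median of ratios, TMM or quantiles brought that median to -0.0048, 0.0069 and 0.0052. Under median-of-ratios scaling and under TMM the fold changes of Atp2a2 and Jph1, both close to 0, changed sign. The directions of Atp2a1, Casq1, Ryr1, Cacna1s, Cacnb1 and Cacng1 were the same under these 3 scalings. The myotube markers described above also had a lower sum in EPS on average, and their part in these differences was not tested.

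**Figure D4:**
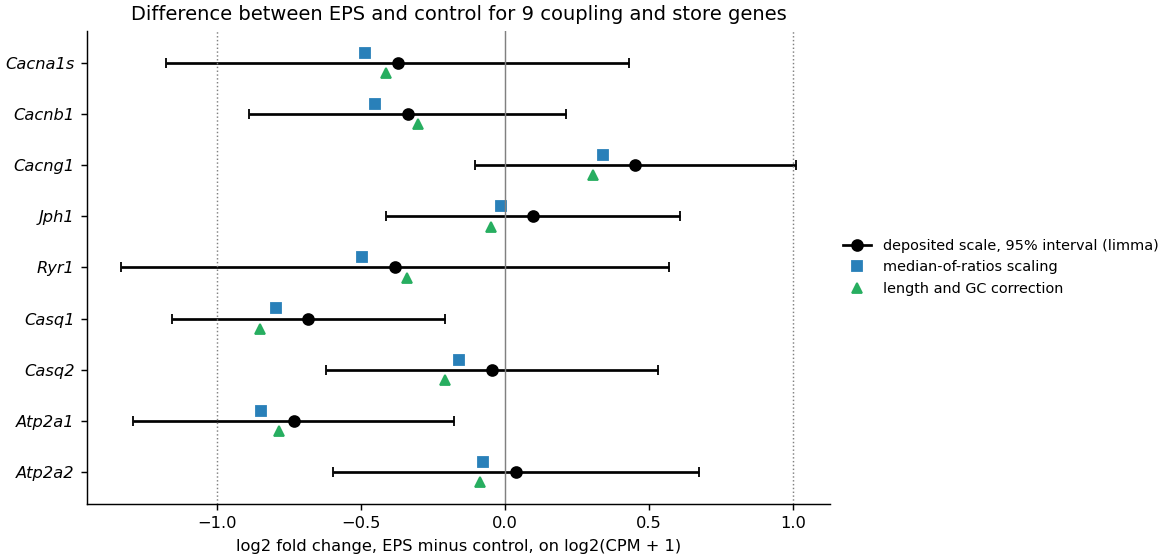
Log2 fold change (EPS minus control) of 9 of the 10 genes, with black dots and 95% confidence intervals from limma on the deposited scale, blue squares for median-of-ratios scaling and green triangles for a correction for exonic length and GC content. The intervals of Atp2a1 and Casq1 exclude 0, those of the other genes include it, and no dot lies beyond the dotted lines at a 2-fold change.

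Compared per kb of exonic length, the most abundant transcript of the 10 was Casq2, with a mean level of 324 CPM per kb in control and 317 in EPS, and it ranked 1 in each of the 7 libraries. Atp2a1 followed in control at 233 CPM per kb, before Atp2a2 at 180, Cacng1 at 175 and Casq1 at 101. In EPS the order was Cacng1 at 244 CPM per kb, Atp2a2 at 184, Atp2a1 at 141 and Casq1 at 61.9. The ranges of the neighbours above Casq1 overlapped, except for Cacng1 and Casq1 in control and for Atp2a1 and Casq1 in EPS, which were apart. Cacnb1, Cacna1s and Ryr1 stood close together, at 37.7, 34.2 and 34.1 CPM per kb in control and 29.9, 26.97 and 27.1 in EPS, with overlapping ranges, below Casq1 in both groups. The closeness of Ryr1 and Cacna1s depends on the length taken. Divided by the longest annotated transcript, the mean ratio of Ryr1 to Cacna1s was 1.34 in both groups. Jph1 was at 20.1 and 21.4 CPM per kb, with a range that overlapped its neighbour above in both groups, and Sln was last.

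The other genes of coupling and calcium handling were examined in 4 lists of 60 genes, of which 58 were listed and tested. None passed the thresholds for differentially expressed genes or had an adjusted p under 0.05 in limma. At an unadjusted limma P under 0.05, 3 were higher in EPS (Cacnb4, Orai3 and Ccdc109b) and 5 were lower (Stac3, Srl, Atp2a3, Ccdc109a and Stim2), where 8.4% of all tested genes were called higher and 3.21% lower. The groups did not overlap for 3 genes higher in EPS (Cacnb4, Orai3 and Efha1, the symbol of Micu2) and 5 lower (Stac3, Srl, Homer1, Stim2 and Ccdc109a), against 7.76% and 2.85% of all tested genes. Of the 50 with a mean of at least 1 CPM, 17 had a higher and 33 a lower mean log2 level in EPS.

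In the voltage sensor and triad list, 16 of 18 genes had a lower mean log2 level in EPS, with a median log2 fold change of -0.29, and 2, both lower, passed a limma P under 0.05, a call that 3.21% of all tested genes met. Stac3 was at 41.5, 37.4 and 56.5 CPM in control and at 29.7, 33.0, 34.1 and 20.9 CPM in EPS, with a log2 fold change of -0.60 (SE 0.22, limma adjusted p = 0.331, exact permutation p = 0.0286). All its EPS libraries lay below all control libraries, and without control replicate 4 its log2 fold change was -0.43. Cacna2d1, the alpha-2/delta subunit of the sensor, was at 294, 300.5 and 211 CPM in control and at 116, 302, 240 and 114 CPM in EPS, a log2 fold change of -0.59 (SE 0.36) with overlapping groups. It was -0.38 without EPS replicate 4, -0.39 without EPS replicate 1 and -0.85 without EPS replicate 2. The groups were also apart, with EPS lower as in 2.85% of all tested genes, for Srl, which encodes the store protein sarcalumenin, at 705 to 857 CPM against 415 to 660 CPM, and for the scaffold Homer1, at 30.5 to 33.4 CPM against 23.7 to 27.2 CPM. Jph2, the partner of Jph1, was at 439, 235 and 488 CPM in control and 278, 238, 423 and 226 CPM in EPS. Trdn (triadin), which links calsequestrin to the release channel, was at 22.4 to 51.3 CPM and 12.3 to 45.2 CPM. Tmem38a, a potassium channel of the store, was at 284 to 355 CPM and 256 to 361 CPM, and the groups of these last 3 genes overlapped. Srl, Homer1, Jph2, Trdn and Tmem38a were singled out after their values had been seen.

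Among channel and pump isoforms, 9 of 14 genes had a mean of at least 1 CPM, 5 of them higher and 4 lower, with a median log2 fold change of 0.055. Atp2a3, the SERCA form of non-muscle cells, was at 2.22, 1.44 and 2.53 CPM in control and 0.884, 1.12, 1.64 and 1.01 CPM in EPS (log2 fold change -0.50, limma adjusted p = 0.376, exact permutation p = 0.0857). Cacng6, a further gamma subunit, was at 2.65 to 6.74 CPM and 2.12 to 3.33 CPM (log2 fold change -0.48, and -0.17 without control replicate 4). Cacnb4, a beta subunit of neurons, was higher in all EPS libraries than in all control libraries (limma adjusted p = 0.152, exact permutation p = 0.0286), but at 0 to 0.301 CPM in control and 0.548 to 0.877 CPM in EPS it rested on few reads. Ryr2 and Cacna1c, the release channel and the calcium channel of heart, and Cacna1d had no more than 3 reads in any library. Ryr3, a release channel of immature muscle, was at 66.8, 38.3 and 37.7 CPM in control and 38.3, 44.8, 62.4 and 19.3 CPM in EPS. Cacnb4 and Ryr3 were singled out after their values had been seen.

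Of the pump regulators and calcium buffers, 10 of 12 symbols were matched and Strit1 and Arln were not. None passed a limma P under 0.05, and of the 9 with a mean of at least 1 CPM, 3 were higher and 6 lower, with a median log2 fold change of -0.051. Calm2 and Calm3, a pair of genes that encode the same calmodulin protein, had the largest differences of the list, in opposite directions. Calm2 was at 182, 276 and 158 CPM in control and 257, 425, 214 and 366 CPM in EPS (log2 fold change 0.61, SE 0.29, and 0.44 without control replicate 4). Calm3 was at 158, 174 and 414 CPM in control and 136, 162, 172 and 181 CPM in EPS (log2 fold change -0.47, SE 0.31), and without control replicate 4, its highest library, the log2 fold change was -0.036.

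In the list of store-operated entry, extrusion and mitochondrial uptake, 7 genes were higher and 7 lower among 14 with a mean of at least 1 CPM, with a median log2 fold change of 0.0062. Ccdc109a, the symbol under which Mcu, the pore of the mitochondrial calcium uniporter, is listed, was at 70.4, 52.8 and 85.4 CPM in control and at 33.7, 36.4, 48.3 and 24.5 CPM in EPS. All EPS libraries lay below all control libraries, with a log2 fold change of -0.95 (SE 0.25, limma adjusted p = 0.178, exact permutation p = 0.0286), and -0.79 without control replicate 4. Its adjusted p was 0.0105 with DESeq2 and ranged from there to 0.585 over the alternatives. Ccdc109b, the symbol of the uniporter's inhibitory subunit Mcub, was at 7.70, 15.0 and 7.10 CPM in control and at 19.3, 16.4, 10.7 and 21.4 CPM in EPS, with a log2 fold change of 0.74 (SE 0.32, limma adjusted p = 0.424, exact permutation p = 0.114). Its groups overlapped, and without control replicate 4 the log2 fold change was 0.56. Stim2, a sensor of calcium in the store, was at 73.4 to 97.2 CPM in control and 58.2 to 65.7 CPM in EPS (log2 fold change -0.49, limma adjusted p = 0.231, exact permutation p = 0.0286). Orai3, a channel of store-operated entry, was at 8.91 to 13.5 CPM in control and 15.5 to 20.6 CPM in EPS (log2 fold change 0.61, limma adjusted p = 0.317, exact permutation p = 0.0286). Their relatives Stim1, at 27.6 to 43.8 CPM against 34.9 to 43.1 CPM, and Orai1, at 24.8 to 59.2 CPM against 24.5 to 36.7 CPM, overlapped. Stim2, Orai3, Stim1 and Orai1 were singled out after their values had been seen.

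**Figure D5:**
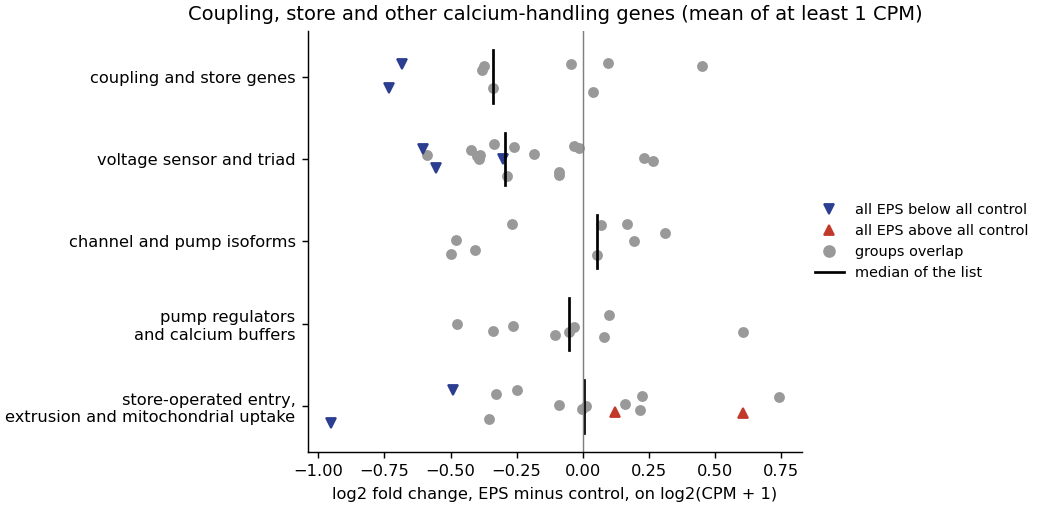
Log2 fold change (EPS minus control) of each gene with a mean of at least 1 CPM, for the coupling and store genes and for the 4 lists of other coupling and calcium handling genes, with a line at each median. The triad list lies mostly below 0 with a median of -0.29, and the medians of the other 3 lists lie close to 0.

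Fast-fiber markers were set beside Atp2a1, the fast-fiber pump, and Casq1, which is expressed in fast and slow fibers. Of the 8 fast-fiber markers 5 were lower, and their sum was 8522 to 9704 CPM in control and 6830 to 10516 CPM in EPS. Myh4, the myosin heavy chain of the fastest fibers, was at 655, 525 and 363 CPM in control and 237, 37.7, 85.2 and 80.3 CPM in EPS, a log2 fold change of -2.48 (SE 0.52, limma adjusted p = 0.108, exact permutation p = 0.0286), and was the marker of this list past the thresholds for differentially expressed genes. Myh1 was at 3326, 1755 and 1932 CPM in control and 1763, 976, 1620 and 778 CPM in EPS, with groups that overlapped by 1 library. Myh2 was at 52.4 to 109 CPM against 22.5 to 50.8 CPM, without overlap. Of all tested genes, 1.41% passed the thresholds that Myh4 passed. The groups were apart with EPS lower, as for Myh4 and Myh2, in 2.85% of all tested genes. The other 5 markers overlapped between the groups, with log2 fold changes of 0.26 for Tnni2, 0.25 for Mylpf and 0.12 for Tnnc2, which were higher in EPS, and of -0.14 for Tnnt3 and -0.20 for Actn3. The slow-fiber markers summed to 3324 to 5705 CPM in control and 3251 to 4307 CPM in EPS, with 3 of the 6 above 1 CPM higher and 3 lower. Among them Myh7, the slow myosin heavy chain, was at 68.6 to 128 CPM and 32.9 to 83.5 CPM, and Myl2, a slow myosin light chain, at 3.73 to 5.54 CPM and 4.57 to 11.2 CPM. The part of the fiber-type markers in the lower Atp2a1 and Casq1 levels was not tested.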

How the data were processed

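RNA of 3 control and 4 EPS libraries was enriched for poly(A) and sequenced from both ends of strand-marked (directional) fragments. Per the labels and the methods, the authors mapped reads to GRCm38 with STAR 2.5.4b and deposited CPM per gene, without log transformation. The read counter, annotation and strand setting are not given in the sources used here. All CPM (100% of values) came within 0.05 reads of a whole multiple of 1 read, so that read counts were recovered.

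The 19144 genes with a read in any library entered limma 3.58.1 (R 4.3.3) as log2(CPM + 1), in a model on group with trended empirical Bayes and Benjamini-Hochberg adjustment. Fold changes on this scale understate the change of low genes. Single values were compared by an exact two-sided permutation test over 35 divisions of the libraries. Alternatives were edgeR 4.0.16 and DESeq2 1.42.0 on recovered reads, other scalings, pseudocounts and filters, a replicate block and leaving out each library. A loess correction for exonic length and GC content was added after seeing the data. The limma, edgeR and DESeq2 fits were tested on simulated reads with changes put into known genes. The permutation test, the other scalings, the replicate block and the loess correction were not tested in this way.

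Gene models came from GENCODE M21, which matched 24503 of the 26607 listed genes (92.1%). The 10 genes, the lists and the tests were chosen with earlier results of these data known. All 10 genes were named, and from each list the genes past the thresholds and, where fewer than 2 passed, the 2 with the largest change at a mean of at least 1 CPM. For Ryr1 and Atp2a1, the 3 most similar genes were named.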

Additional observations from a re-analysis of the deposited data

Results flagged for a closer look

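The Casq1 share of Casq1 plus Casq2 in EPS replicate 1, 16.1%, lay far from the other EPS libraries at 10.9 to 11.7%. Its gap to the nearest of them was 0.833 of the range of the group, above Dixon's critical value of 0.829. This check flags about 1 in 20 groups by chance, and 20 groups were examined. The library's Casq1 level of 139 CPM was the highest of the EPS group and its Casq2 level of 727 CPM the lowest.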

How the results depend on the processing

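Atp2a1 and Casq1 were lower in EPS under all 18 alternatives, at log2 fold changes of -0.85 to -0.57 and -0.89 to -0.56, and Ryr1, Cacna1s, Cacnb1 and Cacng1 kept their direction in the same alternatives. The P of Atp2a1 was under 0.01 in 5 of these and that of Casq1 in 10, and their adjusted p ranged from 0.0281 to 0.625 and from 0.0206 to 0.594. No gene of the 10 passed a P under 0.01 with a 2-fold change under any alternative, the P threshold of 0.001 included. An adjusted p under 0.05 was reached by 2 of the 10 genes with DESeq2 (Atp2a1 and Casq1, against 3.39% of all genes in that fit) and by 1 with the length and GC correction (Casq1, against 1.95%). Of the 58 other coupling genes, 1 passed the thresholds with DESeq2, edgeR, TMM scaling, median-of-ratios scaling, quantile normalization and the length and GC correction, and leaving out 1 library each gave 0 to 2, with 1 without EPS replicate 3 and 2 without control replicate 3. Among all genes of the same fits, the share was 3.06% with DESeq2, 3.27% with edgeR, 1.35% with TMM scaling, 1.33% with median-of-ratios scaling, 1.26% with quantile normalization, 2.44% with the length and GC correction and 1.09 to 1.72% on leaving out 1 library, so that 1 of 58 is near the background. Under each of the former alternatives the gene was Ccdc109a, at log2 fold changes of -1.08 to -1.05. Without control replicate 3 it was joined by Ccdc109b, at 1.06. Without control replicate 4 or EPS replicate 1, 3 of the 10 genes had groups that did not overlap, Cacng1 being added with EPS higher. With these 6 libraries the groups of 13.1% and 9.78% of all tested genes did not overlap with EPS higher, and those of 6.53% and 3.59% with EPS lower.

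The fold change of Atp2a2 was -0.080 with DESeq2, -0.084 with edgeR, -0.062 with TMM scaling, -0.074 with median-of-ratios scaling and -0.085 with the length and GC correction, and that of Jph1 was -0.025, -0.028, -0.0023, -0.015 and -0.048. Leaving out 1 library each gave -0.14 to 0.17 for Atp2a2, -0.17 to 0.034 for Casq2 and -0.12 to 0.25 for Jph1. The log2 ratio of Ryr1 to Cacna1s differed by 0.075 with the length and GC correction, and the cause was not tested.

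Over 12256 genes, the deviations of libraries with the same replicate number correlated at r = 0.25, -0.45 and 0.068 for numbers 1, 3 and 4. The correlation was positive for number 1 but not alike across the numbers, so the numbers were not taken as pairs. With the replicate block, EPS replicate 2 has no partner, and the log2 fold changes were -0.72 for Atp2a1 and -0.75 for Casq1, neither past an unadjusted P of 0.05, -0.24 for Ryr1, -0.019 for Atp2a2 and -0.040 for Jph1 in limma. The mean within-number difference was -11.2 percentage points for the Atp2a1 share, -5.04 for the Casq1 share and -0.038 (log2) for Ryr1 per Cacna1s.

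With 3 and 4 libraries, no permutation p can fall below 0.0286. Read depth limits Sln, Pln and the other genes near 3 reads.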
